A study of Mus musculus with 8 samples.

Results

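Potassium channels let potassium ions leave a cell and so set its resting potential and the length of its electrical discharges. In bladder smooth muscle they oppose the calcium spikes that drive contraction, and in bladder nerves and urothelium they tune firing and ion transport. The genes described here are the voltage-gated, inward rectifier, two-pore and sodium-activated potassium channel genes with their auxiliary subunits. They were taken by name as every gene symbol that starts with Kcn, apart from those starting with Kcnm or Kcnn, which cover the calcium-activated channels. This gave 85 genes of the 38926 symbols in each library.

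The families differ in how their channels open. Voltage-gated subunits of the Kcna, Kcnb, Kcnc, Kcnd, Kcnh and Kcnq families assemble in fours and open on depolarization. Subunits of the Kcnf, Kcng, Kcns and Kcnv families do not form channels alone and modify the Kcnb channels they join. Inward rectifiers (Kcnj) pass current near the resting potential, some of them under the control of ATP or G proteins, and two-pore channels (Kcnk) carry the background leak. The Kcnab, Kcnip and Kcne genes encode partners that bind the pore-forming subunits and change their gating or traffic.

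PolyA RNA of whole mouse bladders was sequenced after a nerve-sparing partial bladder outlet obstruction (NeMO, 4 libraries) or a sham operation (Sham, 4 libraries). Neither the labels nor the design text states strain, sex, age, the time after surgery or whether libraries came from separate animals, so the p-values reflect only the spread among these libraries, which may be technical. Library totals ran from 27212499 to 36375313 counts. Batch 1 held 2 NeMO and 3 Sham libraries, and batch 2 held 2 NeMO libraries and 1 Sham library, replicate 4. Markers of smooth muscle (summed level 29207 to 54080 CPM in NeMO and 34280 to 46116 in Sham) and of urothelium (4815 to 7090 and 5880 to 7746) were abundant in every library. Levels are in CPM, which are read counts scaled to the size of each library. NeMO replicate 3 held the most fibroblast marker transcripts (16911 CPM, against 7312 to 10999 in the other NeMO libraries and 8076 to 10691 in Sham) and the fewest of smooth muscle (29207 CPM). NeMO replicate 1 held the most of smooth muscle (54080 CPM). In whole tissue, fewer cells of a type and less RNA per cell cannot be told apart.

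No potassium channel gene passed the test of NeMO against Sham at an adjusted p of 0.05, and those with the smallest p-values were all lower in NeMO. The test was edgeR's quasi-likelihood test with Benjamini-Hochberg adjustment over 16370 genes, and 57 of the 85 members had enough reads to enter it. Of these 57, 0 were called lower and 0 higher, beside 0.0305% and 0.0428% of all genes tested. At an unadjusted p under 0.05, 12 members were lower (21.1%) and 0 higher, beside 9.14% and 9.38% of all genes. This count, and the share over all genes, changed when 1 library was left out. Without Sham replicate 4 it was 5 lower of 58 tested (8.62%) and 0 higher, beside 4.41% and 5.56% of all genes. That library is the only Sham library of batch 2. Without it the batch term leaves the comparison to batch 1, so this is not a separate check from batch 1 alone. Without NeMO replicate 3 the count was 7 lower (12.1%) and 1 higher, beside 6.34% and 7.34%. Without NeMO replicate 1 it was 17 lower (29.8%) and 2 higher, beside 10.9% and 10.7%. It was 6 lower and 0 higher in batch 1 alone, beside 4.56% and 5.93% of all genes, and 6 lower and 2 higher in batch 2 alone, beside 5.04% and 5.38%. DESeq2's Wald test, tried as an alternative, called 6 members lower and 0 higher among 54 with an adjusted p, beside 2.27% and 3.26% of all genes. These 6 were Kcnk1, Kcnk3, Kcna1, Kcnh1, Kcnc1 and Kcnip1, a mixture of leak channels, voltage-gated channels and an auxiliary subunit. Over all 57 members the median log2 fold change (NeMO minus Sham) was −0.06, beside −0.01 over all genes, with 34 members (59.6%) on the lower side and 23 (40.4%) on the higher side, beside 51.7% and 48.3% of all genes.

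**Figure D1:**
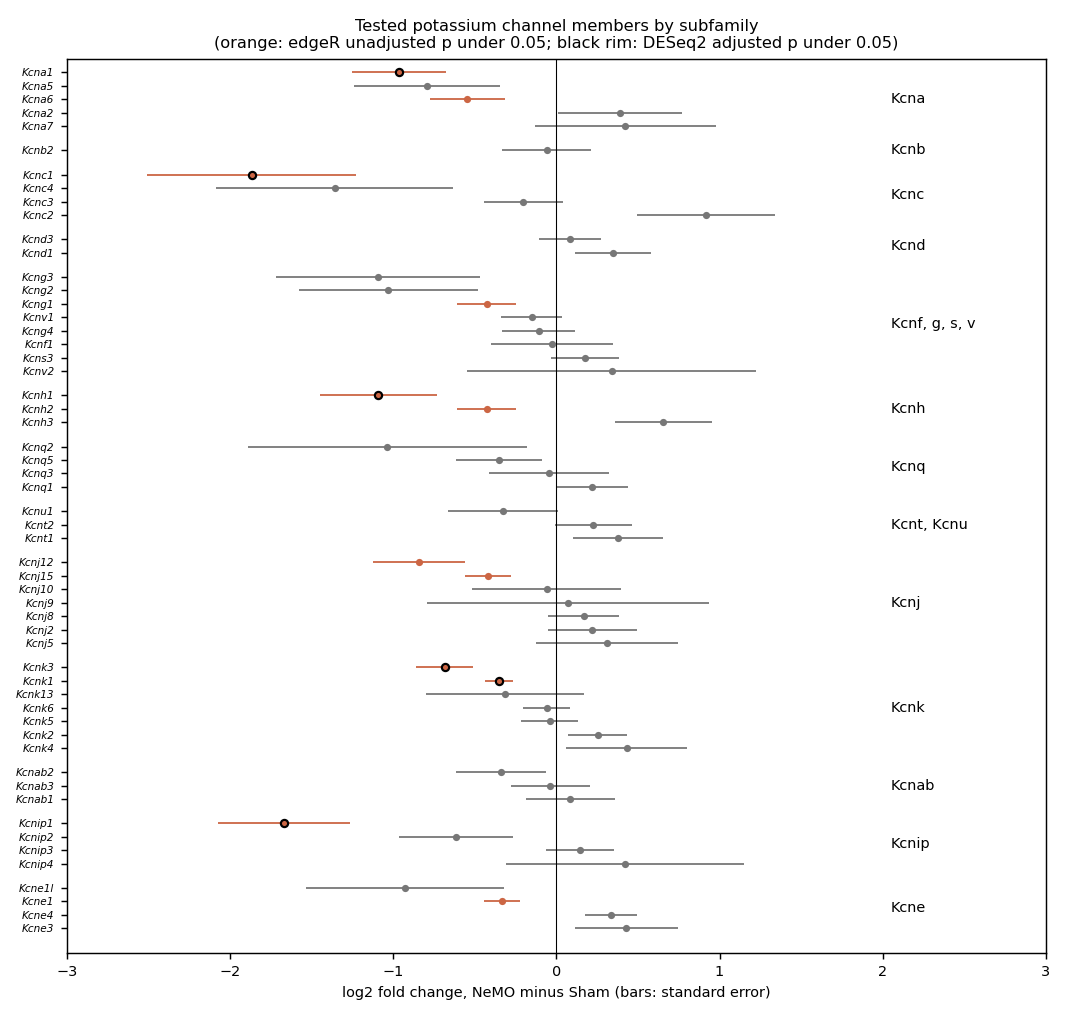
Log2 fold change of NeMO minus Sham (horizontal axis) for 55 of the 57 tested members, grouped by subfamily, with bars of 1 standard error. Orange points are the 12 members at an edgeR unadjusted p under 0.05, all left of 0, and black rims mark the 6 members past DESeq2's adjusted threshold.

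The 4 NeMO values lay below the 4 Sham values in 7 of the 57 members (12.3%, beside 3.81% of all genes tested), and in 0 members all NeMO values lay above (4.39% of all genes). The 7 were Kcnk3, Kcnip1, Kcnh1, Kcnc1, Kcne1, Kcnj15 and Kcng3. All 12 members that were lower at an unadjusted p under 0.05 kept a negative log2 fold change in batch 1 alone, in batch 2 alone and without any 1 library, but selection on these same libraries makes this likely. Neuron markers were lower in NeMO in 11 of 11 genes (2 at an unadjusted p under 0.05), with summed levels of 202 to 372 CPM in NeMO and 351 to 442 in Sham. Glial markers were lower in 5 of 6 genes, 2 of them at that p (112 to 132 CPM against 128 to 155), and urothelial markers in 9 of 10, 5 of them at that p. Adipocyte markers were lower in 5 of 5 genes, 3 of them at that p (324 to 1048 CPM against 819 to 2373), and macrophage markers in 5 of 5, 1 at that p (260 to 651 CPM against 527 to 755). Mast cell markers were higher in 4 of 5 genes, 4 at that p and with no overlap between groups. Pericyte and vascular smooth muscle markers were higher in 5 of 7 genes, 1 at that p. Endothelial markers were higher in 7 of 8, with 0 at that p. Fibroblast markers were higher in 6 of 8, with 1 higher and 1 lower at that p. Smooth muscle markers were lower in 5 of 8 genes and higher in 3, with 0 at that p. T cell markers were lower in 3 of 6 and skeletal muscle markers in 3 of 6 tested. Interstitial cell of Cajal markers were lower in 1 of 3, and these lists too had 0 genes at that p. EdgeR called 0 genes of all these lists. DESeq2 called 5 urothelial and 2 adipocyte markers lower, and 4 mast cell markers and 1 pericyte and vascular smooth muscle marker higher. No marker in these lists was at 0 in all libraries, and the part of these cells in the potassium channel values was not tested.

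Of the 6 genes that DESeq2 called, RefSeq promoter windows (GRCm38.p6) were given for Kcnk1, Kcnh1, Kcnc1 and Kcnip1. The 250 bases before the start site are printed for these because DESeq2 called them lower. The edgeR test called none of them, and whether they vary together was not tested. Capitals mark the E-box letters CANNTG, which bind basic helix-loop-helix factors. Kcnk1 is shown at chr8:125994852-125995101 (plus strand), Kcnh1 at chr1:192190527-192190776 (plus), Kcnc1 at chr7:46396218-46396467 (plus) and Kcnip1, at the most upstream of its 3 listed starts, at chr11:33993194-33993443 (minus).
Kcnk1: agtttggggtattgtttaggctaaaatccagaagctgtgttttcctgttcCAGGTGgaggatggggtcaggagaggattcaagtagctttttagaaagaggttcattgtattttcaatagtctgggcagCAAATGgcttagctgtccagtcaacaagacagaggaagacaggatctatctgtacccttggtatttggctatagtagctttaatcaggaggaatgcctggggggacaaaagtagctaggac
Kcnh1: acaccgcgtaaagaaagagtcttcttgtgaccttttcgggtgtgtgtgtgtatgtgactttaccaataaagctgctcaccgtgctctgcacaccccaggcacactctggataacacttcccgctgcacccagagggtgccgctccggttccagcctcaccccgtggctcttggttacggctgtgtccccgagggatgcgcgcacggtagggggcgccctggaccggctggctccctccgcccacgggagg
Kcnc1: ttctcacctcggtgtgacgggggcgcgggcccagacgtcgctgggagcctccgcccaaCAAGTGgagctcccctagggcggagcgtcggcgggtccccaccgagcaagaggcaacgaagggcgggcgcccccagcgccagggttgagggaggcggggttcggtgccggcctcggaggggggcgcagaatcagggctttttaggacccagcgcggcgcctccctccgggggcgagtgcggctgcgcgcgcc
Kcnip1: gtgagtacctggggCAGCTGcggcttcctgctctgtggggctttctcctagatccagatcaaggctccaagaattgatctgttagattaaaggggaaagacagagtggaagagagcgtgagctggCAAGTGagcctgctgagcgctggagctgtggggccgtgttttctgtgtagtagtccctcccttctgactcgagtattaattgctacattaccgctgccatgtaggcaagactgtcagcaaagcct

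These stretches had little in common. GC content was 44.4% with 0 CpG dinucleotides in Kcnk1, 52.8% with 6 in Kcnip1, 62% with 17 in Kcnh1 and 74.4% with 30 in Kcnc1, while the median of all 32851 windows of this length was 52.4% with 6. Among the 12 members lower at an unadjusted p under 0.05, 8 had a window, 10 windows in all. The letters CANNTG, the same on both strands, stood in 7 of these 10 windows (70%) and in 66.2% of all windows. The AP-1 letters TGANTCA, also the same on both strands, stood in 0 of the 10 (6.75% of all windows), the TATA letters TATAAA on either strand in 0 (12.4%) and the CArG box, the site of serum response factor, in 0 (1.47%).

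Levels were compared between genes as CPM per kilobase of exon, since long transcripts collect more reads. The 2-pore gene Kcnk1, which encodes the TWIK1 leak channel, stood highest at a mean of 39.7 CPM per kb over all 8 libraries. Next were the modifier Kcnf1 (20.1 CPM per kb), the acid-sensitive leak channel gene Kcnk3 (15.2), the ERG channel gene Kcnh2 (11.4) and Kcnj8 (9.63), the pore of the vascular and smooth muscle ATP-sensitive channel. Then came the regulatory subunit Kcne4 (9.004), the modifier Kcng1 (7.69) and, lower, Kcnd3 (6.26). Of the 57 tested members 45 had a mean of at least 1 CPM and 17 of at least 10 CPM.

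**Figure D2:**
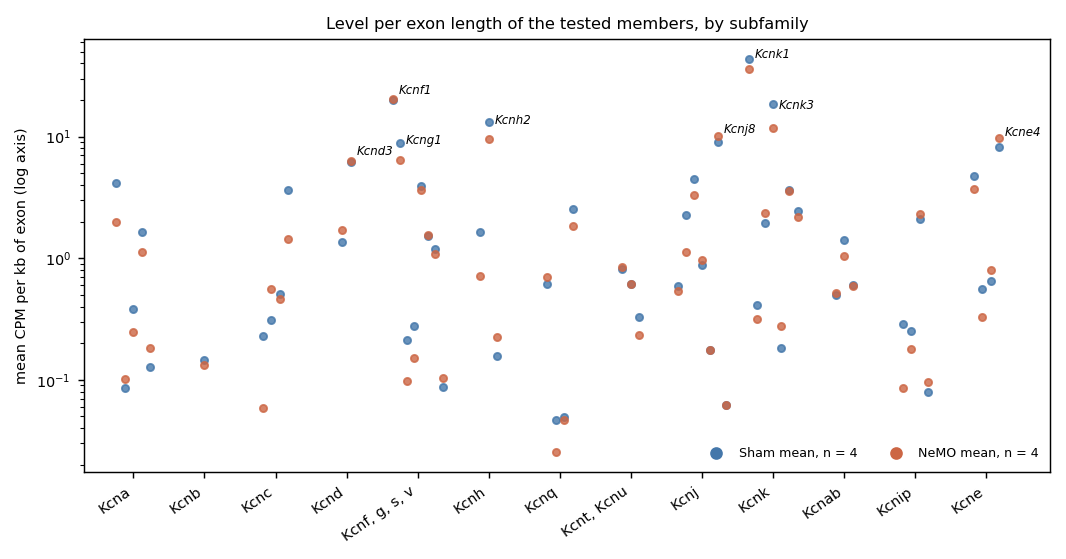
Mean level in CPM per kb of exon (logarithmic axis) for 55 of the 57 tested members by subfamily, with a blue point for Sham and an orange point for NeMO (4 libraries each). Kcnk1, Kcnf1, Kcnk3 and Kcnh2 are the highest, and most of the other members lie below 5 CPM per kb.

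The remaining 28 members had too few reads to be tested. None of them exceeded 23 counts in any library, and 5 (Kcnj1, Kcnj6, Kcnk9, Kcnk15 and Kcnk18) had 0 counts in every library, which allows up to 0.0830 to 0.114 CPM per library (3 counts, counting error only). Among those with few reads were Kcna3, the channel of T cells and macrophages, at 0 to 10 counts per library, and Kcnj11, the pore of the pancreatic ATP-sensitive channel, at 0 to 4 counts. The inward rectifier and two-pore families each had 7 tested members, of 15 and 14, and the Kcnh family 3 of 8.

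Shaker-type Kcna genes encode delayed rectifiers of nerve axons and smooth muscle. Kcna1 measured 13.7, 8.78, 8.01 and 7.42 CPM in NeMO replicates 1 to 4 and 24.7, 11.3, 26.4 and 16.4 CPM in Sham replicates 1 to 4. The groups overlapped only through Sham replicate 2, which was below NeMO replicate 1. The mean was 9.48 ± 2.88 against 19.7 ± 7.10 CPM (SD, n = 4 each), a log2 fold change of −0.97 (SE 0.29, edgeR adjusted p = 0.155, DESeq2 adjusted p = 0.0136).

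Kcna6, a related delayed rectifier gene, measured 8.89, 5.96, 5.18 and 6.64 CPM in NeMO and 10.1, 6.82, 12.4 and 10.1 in Sham, a log2 fold change of −0.55 (SE 0.23, edgeR adjusted p = 0.247). Its groups overlapped through NeMO replicate 1 and Sham replicate 2, the same libraries as for Kcna1. In the family as a whole 3 of 5 tested members were on the lower side, with a median log2 fold change of −0.55. Kcna6 shares exon bases with an antisense gene, and it is not known whether the counting used strand.

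Kcnc genes encode fast channels of rapidly firing neurons. Kcnc1 had the most negative log2 fold change of the 57 members and few reads. It gave 23, 29, 16 and 4 counts in NeMO (0.659, 0.960, 0.466 and 0.111 CPM) and 127, 29, 85 and 37 counts in Sham (3.74, 1.00, 2.54 and 1.41 CPM). The groups did not overlap, though NeMO replicate 2 and Sham replicate 2 had equal counts and nearly met. The log2 fold change was −1.87 (SE 0.64, edgeR adjusted p = 0.183, DESeq2 adjusted p = 0.0381).

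Kcnc4 split the NeMO libraries. It measured 9.95 and 8.15 CPM in NeMO replicates 1 and 2, and 0.961 and 2.02 CPM in replicates 3 and 4, against 12.1, 8.66, 15.9 and 16.4 CPM in Sham. The log2 fold change was −1.36 with a wide error (SE 0.72, edgeR adjusted p = 0.370), and it was −2.58 to −0.94 with 1 library left out. Kcnc2 lay on the other side, at 2.18, 5.10, 5.16 and 3.46 CPM in NeMO and 3.39, 1.49, 2.78 and 1.25 in Sham (edgeR adjusted p = 0.287, log2 fold change 0.92 with an SE of 0.42), and was chosen here after its values were seen. The difference between Kcnc2 and the other Kcnc genes was not tested.

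The Kcnh family holds the EAG and ERG channels. Of its 3 tested members 2 were on the lower side and 1 on the higher side. Their log2 fold changes ran from −1.09 to 0.66, with a median of −0.43. Kcnh1, the founding EAG channel, measured 7.997, 6.26, 3.67 and 3.13 CPM in NeMO and 11.8, 8.21, 18.2 and 9.53 CPM in Sham. All NeMO libraries were below all Sham libraries, with NeMO replicate 1 and Sham replicate 2 almost touching. Its mean was 5.26 ± 2.28 against 11.9 ± 4.45 CPM (SD, n = 4 each), a log2 fold change of −1.09 (SE 0.36, edgeR adjusted p = 0.177, DESeq2 adjusted p = 0.0237).

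Kcnh2 encodes the ERG channel that ends the cardiac action potential and also sets excitability in smooth muscle. It measured 65.1, 44.1, 36.8 and 40.4 CPM in NeMO and 65.4, 54.4, 70.1 and 65.6 CPM in Sham. NeMO replicate 1 sat among the Sham libraries and the other 3 NeMO libraries were below all of them. The log2 fold change was −0.43 (SE 0.18, edgeR adjusted p = 0.254, DESeq2 adjusted p = 0.167), and without NeMO replicate 1 it was −0.71, with an edgeR adjusted p of 0.0182.

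Kcnq genes encode the M-type channels that hold smooth muscle and neurons near rest. Kcnq5 measured 20.8, 15.2, 11.5 and 9.02 CPM in NeMO against 19.7, 15.5, 26.9 and 15.3 CPM in Sham, a log2 fold change of −0.35 (SE 0.26, edgeR adjusted p = 0.513). NeMO replicate 1 was the highest NeMO library and inside the Sham range. Kcnq1, the cardiac and epithelial member, measured 2.88 ± 0.368 CPM in NeMO and 2.50 ± 0.364 in Sham (edgeR adjusted p = 0.632, log2 fold change 0.22 with an SE of 0.22). Across the family 4 of 5 members were on the lower side.

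Kcnb and Kcnd genes, the delayed rectifiers and the transient A-type channels, showed no call. The 2 tested Kcnd genes were both on the higher side, at log2 fold changes of 0.08 and 0.35. Kcnb2 measured 2.02 ± 0.160 CPM in NeMO against 2.19 ± 0.630 in Sham (log2 fold change −0.06 with an SE of 0.27). Kcnd3 measured 89.5 CPM in NeMO replicate 1 and 49.2 to 53.3 CPM in the other NeMO libraries, against 51.2, 67.8, 60.6 and 57.7 CPM in Sham. Its log2 fold change of 0.08 (SE 0.19, edgeR adjusted p = 0.855) was −0.21 without NeMO replicate 1.

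Among the modifiers, Kcnf1 was the most abundant and the libraries were uneven. It measured 142, 117, 40.3 and 89.4 CPM in NeMO and 84.1, 107, 76.0 and 113 CPM in Sham, a log2 fold change of −0.03 (SE 0.37, edgeR adjusted p = 0.981). NeMO replicate 3 was the lowest of all 8 libraries and NeMO replicate 1 the highest, and the log2 fold change was −0.65 to 0.30 with 1 library left out. Kcng1 measured 38.0, 32.2, 23.7 and 22.5 CPM in NeMO and 45.3, 34.5, 43.7 and 37.5 in Sham (edgeR adjusted p = 0.250, log2 fold change −0.43 with an SE of 0.18). Kcng3, with 0.510 ± 0.323 CPM in NeMO and 0.928 ± 0.104 in Sham, had no overlap in CPM, and its edgeR adjusted p was 0.381. Its counts were few and did overlap, at 22, 20, 1 and 26 in NeMO and 35, 23, 30 and 26 in Sham. The log2 fold change was −1.09 (SE 0.62), and −1.86 to −0.52 with 1 library left out. Kcng3 was named because of the separation in CPM, after its values were seen. In this group 6 of 8 tested members were on the lower side, with a median of −0.13.

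**Figure D3:**
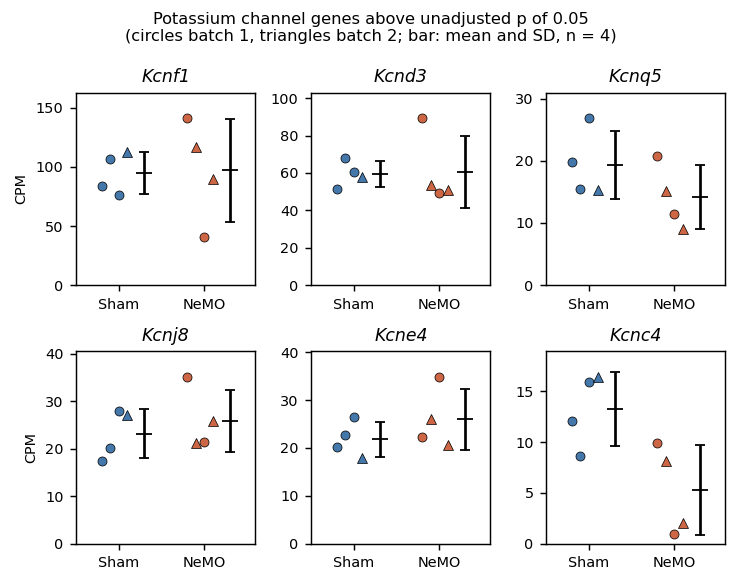
CPM in each library (points, circles for batch 1 and triangles for batch 2) with the mean and SD of 4 libraries, for 6 members above an unadjusted p of 0.05. NeMO replicate 1 is the highest NeMO point in Kcnf1, Kcnd3, Kcnq5, Kcnj8 and Kcnc4, and Kcnc4 splits into a high and a low pair in NeMO.

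Inward rectifiers were mixed. Kcnj12, a strong rectifier of muscle, measured 5.04, 3.15, 2.18 and 2.08 CPM in NeMO and 6.95, 6.20, 7.63 and 4.14 CPM in Sham. Sham replicate 4 lay inside the NeMO range and the other 3 Sham libraries were above it, giving a log2 fold change of −0.84 (SE 0.28, edgeR adjusted p = 0.173, DESeq2 adjusted p = 0.0545). Kcnj15, an epithelial rectifier, measured 24.2, 16.8, 22.8 and 19.3 CPM in NeMO and 25.3, 35.5, 24.8 and 28.7 in Sham. The groups did not overlap, by a narrow margin, and the log2 fold change was −0.42 (SE 0.14, edgeR adjusted p = 0.176).

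Kcnj8 was on the higher side without a call. It measured 35.2, 21.2, 21.5 and 25.7 CPM in NeMO and 17.5, 20.1, 27.9 and 27.2 CPM in Sham, a log2 fold change of 0.17 (SE 0.22, edgeR adjusted p = 0.725). Abcc9, which encodes the sulfonylurea receptor that completes this channel, measured 137 ± 23.2 CPM in NeMO and 132 ± 24.0 in Sham (edgeR adjusted p = 0.629, log2 fold change 0.13 with an SE of 0.13). Pericyte and vascular smooth muscle markers, cells known for both genes, summed to 753 to 820 CPM in NeMO and 719 to 788 in Sham. Of these markers 5 of 7 were higher in NeMO, 1 of them at an unadjusted p under 0.05. Of the 7 tested inward rectifiers 3 were on the lower side, with a median of 0.07.

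Two-pore channels gave the smallest p-value among the members and the most abundant genes that were lower. Kcnk1 measured 75.5, 97.6, 67.9 and 81.3 CPM in NeMO and 83.0, 93.7, 94.6 and 117 CPM in Sham. The groups overlapped through NeMO replicate 2. Its mean was 80.6 ± 12.6 against 97.1 ± 14.3 CPM (SD, n = 4 each), and the fitted fold, adjusted for batch, was 1.28 lower in NeMO (edgeR adjusted p = 0.104, log2 fold change −0.35 with an SE of 0.09, DESeq2 adjusted p = 0.0288). The fit compares libraries of the same batch, and in each batch the NeMO values were below the Sham values.

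Kcnk3, whose channel closes in acid, measured 58.1, 40.1, 38.6 and 50.6 CPM in NeMO and 64.6, 60.4, 72.8 and 97.2 CPM in Sham. Every NeMO library was below every Sham library, and Sham replicate 4 was the highest. The mean was 46.8 ± 9.20 against 73.8 ± 16.5 CPM (SD, n = 4 each), and the fitted fold, adjusted for batch, was 1.61 lower in NeMO (edgeR adjusted p = 0.124, log2 fold change −0.69 with an SE of 0.18, DESeq2 adjusted p = 0.00869). The log2 fold change was −0.45 in batch 1 alone and −1.09 in batch 2, which holds Sham replicate 4. Without NeMO replicate 1 it was −0.92, with an edgeR adjusted p of 0.0137. Kcnk1 and Kcnk3 each share exon bases with an antisense gene.

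Kcnk2, the stretch-activated channel TREK1, measured 10.3, 12.02, 12.1 and 11.8 CPM in NeMO and 12.1, 9.94, 6.77 and 9.65 CPM in Sham (edgeR adjusted p = 0.491, log2 fold change 0.25 with an SE of 0.18). NeMO libraries lay close together and Sham replicate 1 lay within their range. Summed over the family, Kcnk transcripts were at 144 to 175 CPM in NeMO and 184 to 246 CPM in Sham, a sum made up mostly of Kcnk1 and Kcnk3. Of 7 tested members 5 were on the lower side, with a median of −0.06. Of the sodium-activated genes, Kcnt1 measured 8.003 ± 2.56 CPM in NeMO and 7.72 ± 3.27 in Sham (edgeR adjusted p = 0.494, log2 fold change 0.38 with an SE of 0.27). This log2 fold change was 0.0035 in batch 1 alone, 1.18 in batch 2 and 0.049 with no batch term. Batch 2 holds Sham replicate 4, the lowest library for Kcnt1 at 2.96 CPM.

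**Figure D4:**
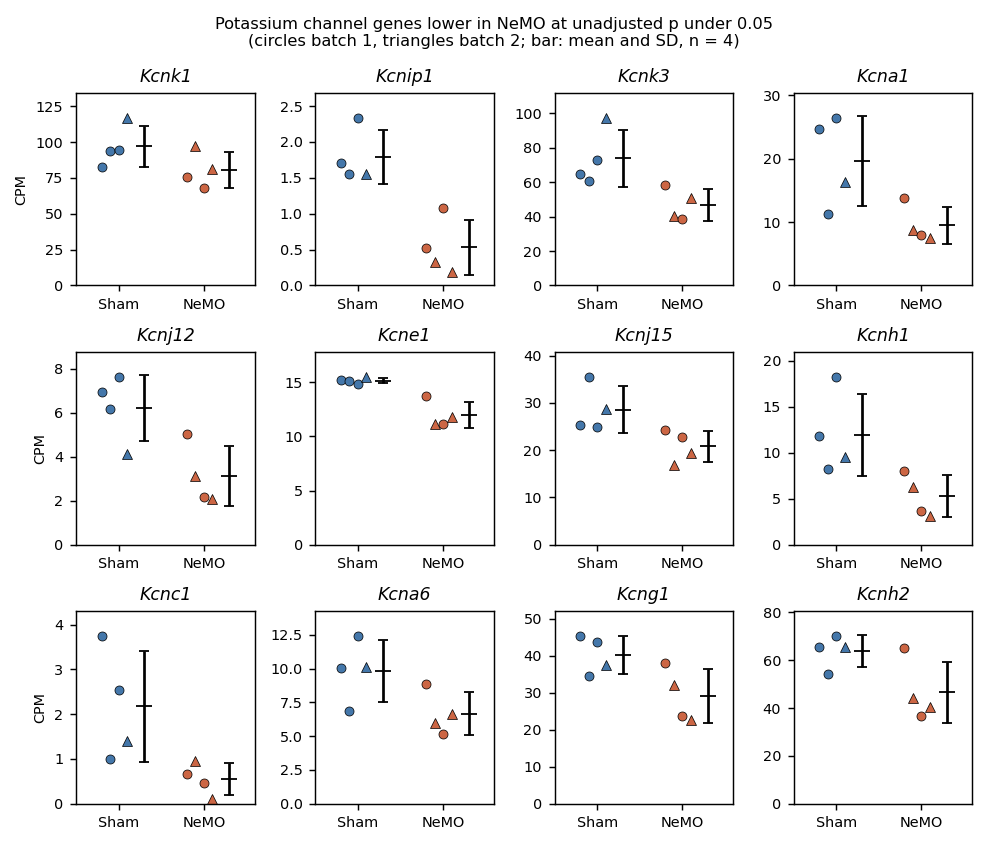
CPM in each library (points, circles for batch 1 and triangles for batch 2) with the mean and SD of 4 libraries, for the 12 members lower in NeMO at an edgeR unadjusted p under 0.05. Kcnip1, Kcnk3, Kcne1, Kcnj15, Kcnh1 and Kcnc1 show no overlap between Sham and NeMO.

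Of the auxiliary subunits, Kcnip1 had the smallest p-value. It encodes a calcium-binding partner of the Kcnd channels and is known mainly from neurons. It gave 18, 10, 37 and 7 counts in NeMO (0.516, 0.331, 1.08 and 0.194 CPM) and 58, 45, 78 and 41 counts in Sham (1.71, 1.56, 2.33 and 1.56 CPM). All NeMO libraries were below all Sham libraries, NeMO replicate 3 being nearest. The log2 fold change was −1.67 (SE 0.40, edgeR adjusted p = 0.104, DESeq2 adjusted p = 0.00922), and it was −1.22 in batch 1 and −2.56 in batch 2. Kcnip3 of the same family measured 8.23 ± 1.88 CPM in NeMO and 7.45 ± 1.16 in Sham (a log2 fold change of 0.15 with an SE of 0.21).

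Kcne genes encode short single-span partners of Kcnq and other voltage-gated channels. Kcne1 measured 13.7, 11.2, 11.1 and 11.8 CPM in NeMO and 15.2, 15.1, 14.9 and 15.5 CPM in Sham. The Sham libraries were nearly equal and all NeMO libraries were below them, a log2 fold change of −0.33 (SE 0.11, edgeR adjusted p = 0.173, DESeq2 adjusted p = 0.123). Kcne4, an inhibitory partner and the most abundant of the family, was on the other side at 26.0 ± 6.36 CPM in NeMO and 21.8 ± 3.68 in Sham (edgeR adjusted p = 0.299, log2 fold change 0.33 with an SE of 0.16). The cytoplasmic beta subunits showed no call, with Kcnab1 at 4.45 ± 0.550 against 4.29 ± 1.44 CPM (log2 fold change 0.09 with an SE of 0.27) and Kcnab2 at 5.87 ± 2.02 against 7.88 ± 2.19 CPM (log2 fold change −0.34 with an SE of 0.28).

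Genes that work with these channels were counted from a list of 24 partners, traffic regulators and related pacemaker channels, of which 21 were tested. By edgeR 0 of the 21 were called, while 3 (14.3%, beside 9.38% of all genes) had an unadjusted p under 0.05 and were higher in NeMO, and 0 were lower at that p. DESeq2 called 3 higher and 0 lower, beside 3.26% and 2.27% of all genes. Their median log2 fold change was 0.03. Akap5, the scaffold that brings protein kinases to Kcnq channels, measured 17.4, 16.6, 22.2 and 14.9 CPM in NeMO and 13.0, 10.9, 13.4 and 6.68 CPM in Sham. All NeMO libraries were above all Sham libraries (edgeR adjusted p = 0.0730, log2 fold change 0.86 with an SE of 0.16, DESeq2 adjusted p = 7.33e-05). Akap9, the scaffold of the Kcnq1 channel complex, stood at 0.28 (SE 0.07, edgeR adjusted p = 0.123). Bace1, a protease reported to bind Kcnq subunits, stood at 0.36 (SE 0.10, edgeR adjusted p = 0.121). After the correction for transcript length and GC content described below, the log2 fold change was 0.72 for Akap5, 0.27 for Bace1 and only 0.08 for Akap9.

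NeMO replicate 1 held the highest NeMO value in 9 of the 12 members that were lower at an unadjusted p under 0.05, and in 23 of all 57 tested members (40.4%, beside 26.4% of all genes tested). NeMO replicate 2 held it in 6 of the 57 members (10.5%, beside 25.6%). Members lay below all Sham libraries in 15 of 57 cases in NeMO replicate 1, 27 in replicate 2, 23 in replicate 3 and 23 in replicate 4, or 26.3%, 47.4%, 40.4% and 40.4%, beside 23.5% to 28.1% of all genes. They lay above all Sham libraries in 9, 5, 17 and 6 cases, or 15.8%, 8.77%, 29.8% and 10.5%, beside 22.1% to 26.3% of all genes, the largest of these shares being that of NeMO replicate 3. Without NeMO replicate 1, edgeR called 3 members lower (Kcnk3 and Kcnh2 among them) and 0 higher, beside 1.98% and 1.94% of all genes. NeMO replicate 1 also held the highest smooth muscle marker sum of the 8 libraries, and the part of this in the potassium channel values was not tested.

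**Figure D5:**
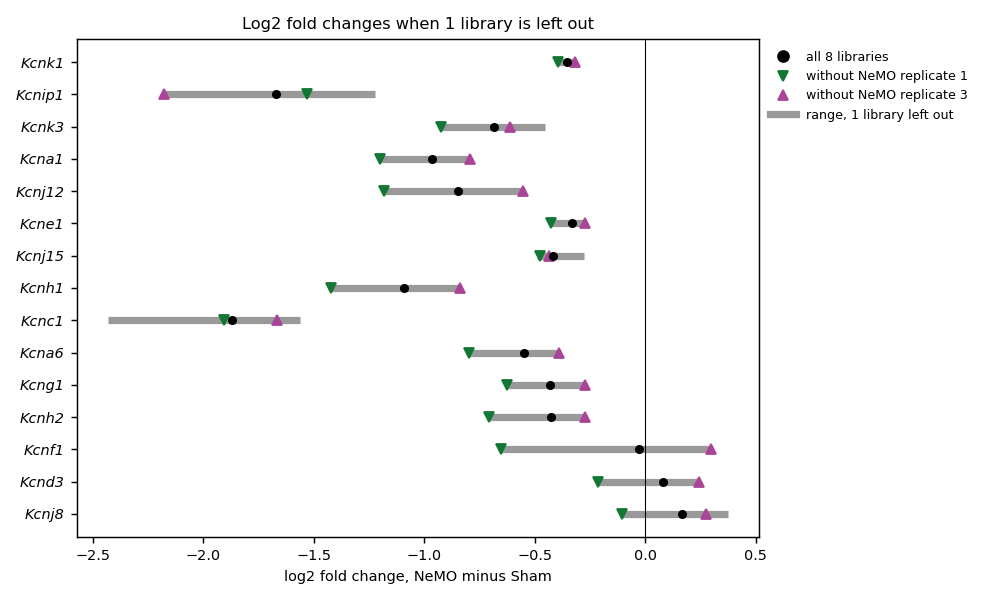
Log2 fold change of NeMO minus Sham with all 8 libraries (black), without NeMO replicate 1 (green) and without NeMO replicate 3 (purple), with grey bars for the range when each library is left out in turn. The 12 members at the top stay left of 0, while Kcnf1, Kcnd3 and Kcnj8 cross it.

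Transcript length runs with the fold changes in these libraries, from a median log2 fold change of −0.16 in the shortest of 8 length bins of all genes to 0.16 in the longest. The tested members were longer than most genes (median longest transcript 3922 nucleotides, beside 3207 over all genes). After a correction for length and GC content the member median was −0.14, beside 0.01 over all genes, with 11 members lower and 1 higher at an unadjusted p under 0.05 (6.53% and 7.35% of all genes) and none past the adjusted threshold.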

How the data were processed

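Read counts per gene symbol, 1 deposited file per library, are the authors' own values. Per the submitters' processing notes, the tools were STAR, Trimmomatic, DESeq2 and featureCounts on the mm10 build, with no versions or roles. Annotation, strand setting and treatment of multiply mapped reads are not stated, so reads of antisense partners cannot be told apart. Of the 85 members, 24 share exon bases with another annotated gene. Groups come from the titles and batches from marks in the submitted file names.

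The fit used edgeR 4.0.16 in R 4.3.3: filterByExpr (minimum count 10, minimum total count 15), TMM and the robust quasi-likelihood F-test on batch and group, two-sided, with Benjamini-Hochberg over 16370 genes, threshold 0.05. The SE is the log2 fold change divided by the root of F. DESeq2 1.42.0 and other settings were alternatives. Exon lengths and positions come from GENCODE M21 (GRCm38), which matched all 85 members. The fit was tested on simulated data. At 1 CPM a gene had 27.2 to 36.4 reads.

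Members and lists were chosen with earlier results of these data known. Named members are those past the adjusted threshold, up to 15 with the smallest unadjusted p under 0.05, the most abundant of each subfamily, and Kcnj8, Kcnq1, Kcnq5, Kcnk2, Kcnk3, Kcnb2 and Kcnab1. The results of 2 further members are not reported here, though counts over all members include them. Others were named after their values were seen: Kcnc2 and Kcng3, and for their low counts Kcna3, Kcnj11 and those at 0.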

Additional observations from a re-analysis of the deposited data

Results flagged for a closer look

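Kcnd3 was singled out because 1 library stood far from the others of its group: NeMO replicate 1 had 89.5 CPM, while the other NeMO libraries had 49.2 to 53.3 CPM. Of the 50 groups of 4 libraries screened (25 named members in 2 groups), this was the only one with such a gap. By chance about 1 of every 20 groups screened shows such a gap, so 1 among 50 does not stand out.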

How the results depend on the processing

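The count of members past the threshold was 0 in edgeR under the other scaling, both filters, no batch term, each batch alone, the replicate block and the length and GC correction. It was 6 with DESeq2 and 0 to 3 with 1 library left out. Of all genes, 12 passed, against 866 with DESeq2, 172 with no filter, 7 with no batch term, 0 in batch 1 alone, 7 in batch 2 alone and 0 to 652 with 1 library left out (652 without NeMO replicate 1). The member median of −0.06 over 57 members was −0.17 with DESeq2 and −0.17 with no filter, each over 80 members. Those 80 include members with too few reads for the main test, so these medians do not cover the same genes. The member median was −0.19 in batch 2 alone (58 members) and −0.16 to −0.0945 with 1 library left out (57 or 58 members). The cause was not tested.

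With the replicate number as a block, 2 genes and 0 members passed. Deviations of same-numbered libraries from their group mean correlated at −0.01, 0.08, 0.04 and 0.32. Batch was not taken out of these deviations, so they cannot settle whether the numbers pair the libraries. Replicates 2 and replicates 4 (the latter both of batch 2) correlated best with each other, and replicates 1 and 3 did not.

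Of 25 named members 6 reversed under at least 1 setting and the others kept their sign. Kcnf1 stood at 0.0309 with no batch term and 0.0278 in batch 1 alone (−0.65 to 0.30 with 1 library left out). Kcnd3 stood at −0.14 in batch 2 alone and −0.0416 after the length and GC correction (−0.21 to 0.24). Kcnj8 stood at −0.20 in batch 2 alone (−0.10 to 0.38), Kcnip3 at −0.0855 there, and Kcnb2 at 0.40 there and 0.0431 with the replicate block (−0.29 to 0.11). Kcnab1 stood at −0.11 in batch 1 alone (−0.11 to 0.26).

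In batch 2 the single Sham library gives no spread of its own and takes that of the 2 NeMO libraries. Kcnip1 and Kcnc1 rest on 4 to 127 counts per library, and Kcng3 on 1 to 35.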
